A study of Homo sapiens with 8 samples.

Results

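The genes described here are 9 that cells switch on early after a growth or stress signal: the dual-specificity phosphatases DUSP1, DUSP4 and DUSP5, the transcription factors JUN, JUNB, KLF2, KLF6 and ETV4, and the stress-induced regulator IER3. They were picked by symbol out of 9245 RefSeq mRNA entries, and each of the 9 has 1 entry. The choice was made with the ratios of these clones known, so their values are a description and carry no test.

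The cells were SK-BR-3, an established human breast cancer line with an amplified ERBB2 gene. The clones lacked mir-141 and mir-200c together (double knockout), mir-200c alone, or mir-141 alone, after cutting with TALENs, which are designed nuclease pairs, and they were set against wild-type cells of the line. Of the 8 libraries, set 1 held wild-type cells and double knockout clone 55, mir-200c knockout clone 11 and mir-141 knockout clone 23, and set 2 held wild-type cells and clones 61, 29 and 10 of the same genotypes. Within a set each genotype is 1 clone, so an effect of the genotype and a trait of the clone cannot be told apart.

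Growth factor receptors such as ERBB2 signal through the kinases RAF, MEK and ERK. Active ERK, and its stress-activated relatives JNK and p38, switch on immediate early genes, whose products include the AP-1 factors JUN and JUNB. The same signal induces its own brakes: nuclear phosphatases of the DUSP family remove the activating phosphates from these kinases. ETV4 is an ETS factor whose gene follows ERK activity and which is known from ERBB2-driven breast tumours.

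Both microRNAs belong to the mir-200 family. Their seeds, the bases by which a microRNA pairs with its target mRNA, are what sets their targets apart, so the mature 3p strands are shown with bases 2 to 8 in capitals (RefSeq, GRCh38.p14, chromosome 12, plus strand).
hsa-miR-200c-3p: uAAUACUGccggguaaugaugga
hsa-miR-141-3p: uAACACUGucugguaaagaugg
Counted from the 5′ end, and with the mir-141 base first, the seeds differ by C4U. Levels of either microRNA were not analysed here, and the loss of each rests on the labels.

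The values are log2 ratios made by the authors, each clone over the wild-type library of the same set. The total count of each library is unknown, and levels could not be read from ratios, so neither the depth behind a value nor the cell line's label could be checked by level. The 6 epithelial and SK-BR-3 markers EPCAM, KRT8, KRT18, KRT19, ERBB2 and GRB7 had ratios between −0.24 and 0.24 in set 1. In set 2 they were listed between −0.51 (KRT8) and 0.73 (GRB7), both in the mir-141 knockout. Of other cell types, 1 of 7 fibroblast markers was listed (−0.41 to −0.11 in set 1), 3 of 6 blood markers (−0.54 to 1.05) and 1 of 4 endothelial markers (0.10 to 1.34), and their part in the results was not tested. Across genes, ratios of clones within a set correlated at 0.502 to 0.709 (they share a wild type), whereas the 9 pairs of columns between sets correlated at −0.00224 to 0.0105. Whether the set 2 values stand beside the right gene names was not tested here. Set 1 is therefore described first, and set 2 as listed.

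In the double knockout of set 1 all 9 genes were above wild type, between 0.41 (KLF6) and 1.48 (JUN), with a median of 0.61 against −0.03 over all genes. A log2 ratio above 0.5, which is 1.41-fold, was reached by 6 of the 9, where 7.36% of all genes reached it. In the mir-141 knockout 8 of 9 were above wild type with a median of 0.31, and 4 of 9 passed 0.5, against 3.55% of all genes. In the mir-200c knockout the genes split: 6 of 9 were above wild type, 2 of 9 passed 0.5 (JUN and KLF2), against 9.05% of all genes, and ETV4 lay below −0.5, as did 7.92% of all genes. In the double and mir-141 knockout 0 of 9 lay below −0.5, against 5.06% and 2.63% of all genes. The 9 genes were chosen on these contrasts, so nothing is read from these counts against the background. All 3 clones share 1 wild-type library, so a gene that is high in each of them cannot be told apart from a gene that was low in that library.

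**Figure D1:**
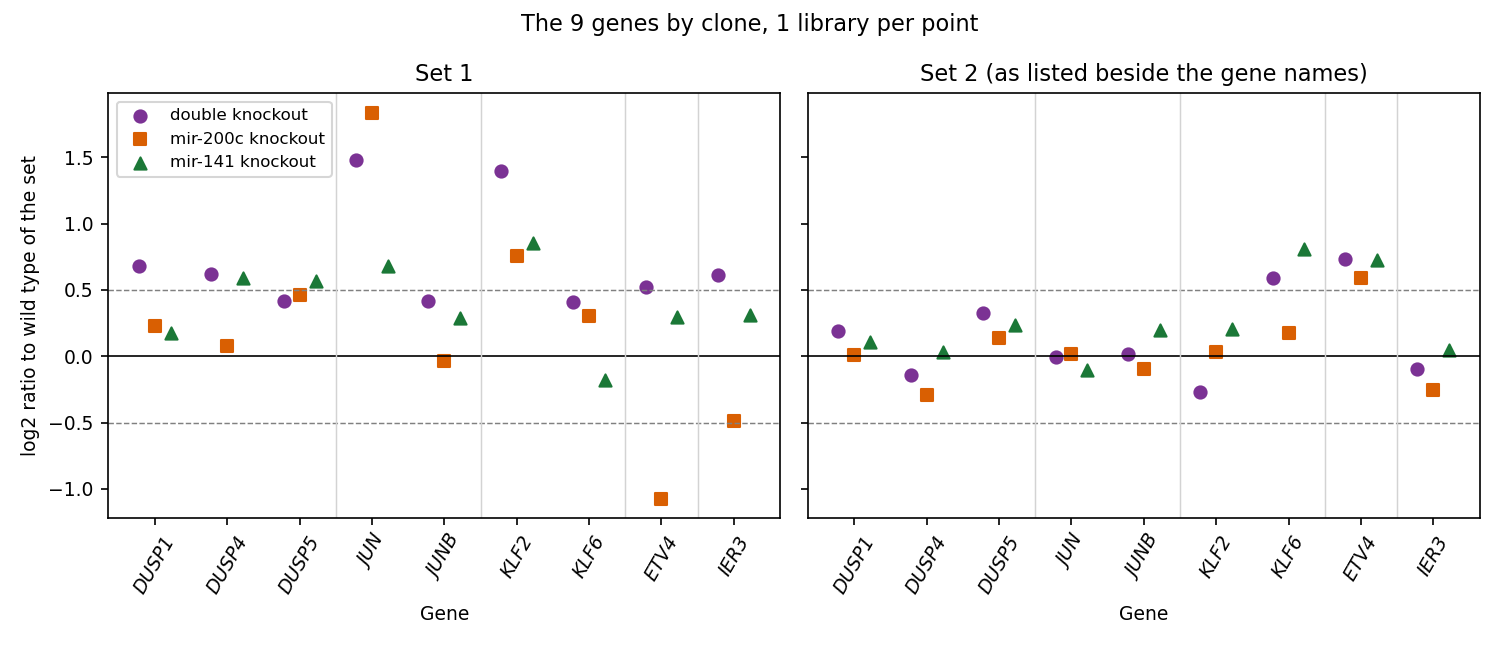
Log2 ratio to the wild type of the set for the 9 genes (x axis), with 1 point per clone; set 1 is on the left, set 2 as listed on the right, and dashed lines mark 0.5 and −0.5. In set 1 JUN reaches 1.83 in the mir-200c knockout and ETV4 lies at −1.07 in the same clone, while in set 2 ETV4 and KLF6 hold the highest values.

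Of the phosphatases, DUSP1, also known as MKP-1 and acting on p38, JNK and ERK, had ratios of 0.68 in the double knockout, 0.23 in the mir-200c and 0.18 in the mir-141 knockout of set 1. The double knockout stood apart at 1.60-fold wild type, and both single knockouts were close to each other. DUSP4, a nuclear phosphatase of ERK and JNK, had 0.62 in the double knockout, 0.07 in the mir-200c and 0.59 in the mir-141 knockout. Here both clones without mir-141 were high and close together, and the clone that kept mir-141 was near wild type. DUSP5, a nuclear phosphatase specific for ERK, had 0.42, 0.47 and 0.57 in the double, mir-200c and mir-141 knockout. The 3 clones lay close together, and the spread between them (0.15) was small beside their distance from wild type.

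The AP-1 factor JUN had the highest ratios of the 9 in the double and the mir-200c knockout: 1.48 in the double knockout, 1.83 in the mir-200c and 0.68 in the mir-141 knockout. These are 2.78-fold, 3.57-fold and 1.61-fold wild type, and 99.6%, 99.7% and 98.4% of all genes had a lower ratio in the same clone. Both clones without mir-200c were above the clone that kept it. JUNB, an AP-1 factor that often counteracts JUN, had 0.41 in the double knockout, −0.04 in the mir-200c and 0.29 in the mir-141 knockout. Its order across clones thus followed DUSP4 and not JUN.

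KLF2, a zinc finger factor best known from quiescent endothelium and T cells, had ratios of 1.40 in the double, 0.76 in the mir-200c and 0.85 in the mir-141 knockout. It was the other gene that passed 0.5 in every clone of set 1, and the double knockout was highest at 2.63-fold wild type. KLF6, a related factor with growth-restraining roles, had 0.41 in the double knockout, 0.30 in the mir-200c and −0.18 in the mir-141 knockout. It was the one gene of the 9 below wild type in the mir-141 knockout. The deposited entry is 1 of the RefSeq transcripts of KLF6, and the others were not analysed here.

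ETV4 had 0.52 in the double knockout, −1.07 in the mir-200c and 0.30 in the mir-141 knockout. In the mir-200c knockout it was at 0.476-fold wild type, with 0.865% of all genes lower. IER3, a regulator of cell death that also binds ERK, had 0.61 in the double knockout, −0.49 in the mir-200c and 0.31 in the mir-141 knockout. For ETV4 and IER3 the mir-200c knockout alone lay well below wild type, and both clones without mir-141 lay above it.

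**Figure D2:**
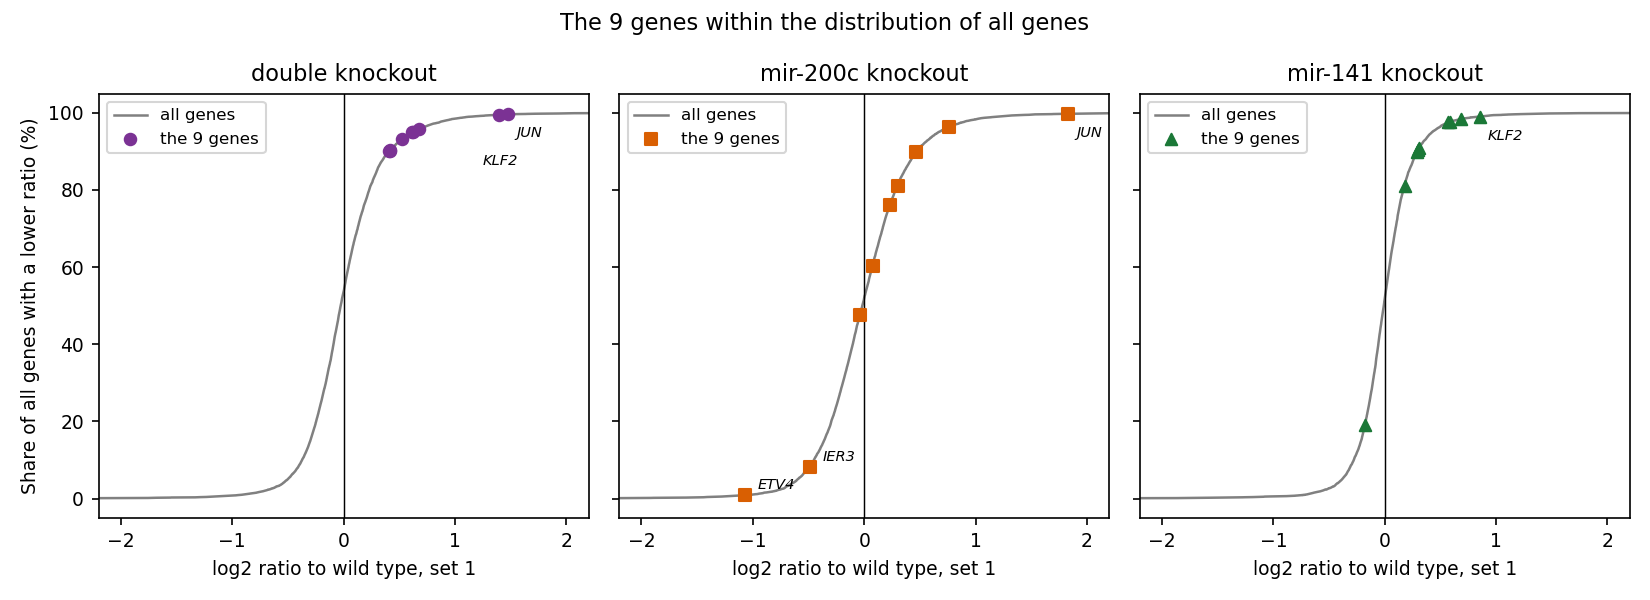
Cumulative distribution of the log2 ratio over all 9245 entries (grey; x axis cut at ±2.2) for each clone of set 1, with the 9 genes as points; the y axis is the share of all genes with a lower ratio (%). In the double knockout all 9 lie at or above 90.0%, while in the mir-200c knockout they run from ETV4 at 0.865% to JUN at 99.7%.

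The differences between clones of 1 set do not hold the wild type, and each compares 1 library with another, so none has a replicate check. Double minus mir-200c knockout compares clones with and without mir-141 where mir-200c is absent from both. ETV4 was 1.60 higher in the double knockout on the log2 scale (3.03-fold), IER3 1.10 higher (2.14-fold), KLF2 0.64 higher and DUSP4 0.55 higher. These 4 of 9 passed 0.5, against 5.40% of all genes, and the median of the 9 was 0.45. JUNB differed by 0.45, DUSP1 by 0.45, KLF6 by 0.11, DUSP5 by −0.05 and JUN by −0.36. JUN was thus the gene of the 9 that stood furthest below the mir-200c knockout in the double knockout.

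Double minus mir-141 knockout compares clones with and without mir-200c where mir-141 is absent from both. JUN was 0.79 higher in the double knockout, KLF6 0.59 higher and KLF2 0.54 higher. These 3 of 9 passed 0.5, against 4.20% of all genes, and DUSP1 lay just under it at 0.4996. The median of the 9 was 0.30, and DUSP5 had the lowest difference at −0.15. ETV4 and IER3, low in the mir-200c knockout, had differences of 0.23 and 0.30 here.

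Mir-200c minus mir-141 knockout sets the single knockouts against each other. JUN was 1.15 higher in the mir-200c knockout (2.22-fold), the 1 of 9 above 0.5, against 7.30% of all genes. ETV4 was at −1.37, IER3 at −0.80 and DUSP4 at −0.51, and these 3 of 9 lay below −0.5, against 6.31% of all genes. The direction thus differed among the 9, with a median of −0.11. Both mir-141-null clones were above the mir-200c knockout for 5 of the 9 (DUSP4, JUNB, KLF2, IER3 and ETV4), as for 38.9% of all genes. The double knockout was the highest of the 3 clones for 7 of 9, as for 26.9% of all genes, the exceptions being JUN and DUSP5.

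**Figure D3:**
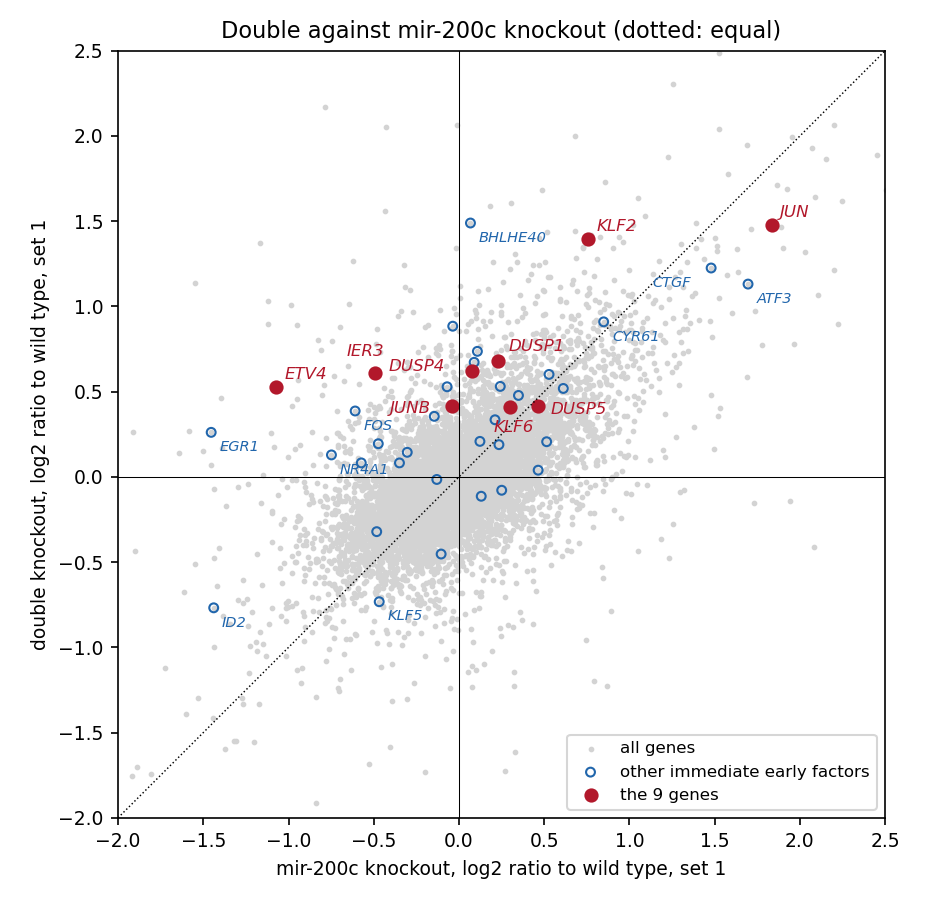
Log2 ratio to wild type in the double knockout (y axis) against the mir-200c knockout (x axis) of set 1 for all genes between −2 and 2.5 (grey), other immediate early factors (open circles) and the 9 genes (filled); the dotted line marks equal ratios, and the axes share 1 wild type. ETV4 and IER3 lie far above the line with differences of 1.60 and 1.10, and JUN lies below it at −0.36.

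Set 2, as listed beside the names, gave other values. Between the sets the columns correlated at −0.00224 to 0.0105 across all genes. A gene's likeness or difference between the sets is therefore read neither as a repeat nor as a failure to repeat. ETV4 was listed at 0.73, 0.59 and 0.72 in the double, mir-200c and mir-141 knockout, with all 3 clones above 0.5. KLF6 was listed at 0.59, 0.17 and 0.81, so the mir-141 knockout was its highest clone there and its lowest in set 1. JUN was listed at −0.003, 0.02 and −0.11, and KLF2 at −0.27, 0.04 and 0.20, without the high ratios of set 1. DUSP5 was listed at 0.33, 0.13 and 0.24 and DUSP1 at 0.19, 0.01 and 0.10, above wild type in all 3 clones. DUSP4 was listed at −0.14, −0.29 and 0.03, IER3 at −0.09, −0.26 and 0.05, and JUNB at 0.02, −0.09 and 0.20. The mir-200c knockout was the lowest clone of set 2 for 7 of the 9 (30.1% of all genes), and the lowest in both sets for 4 of the 9 (11.9%). Above 0.5 were 2 of 9 in the double knockout (8.89% of all genes), 1 of 9 in the mir-200c knockout (5.88%) and 2 of 9 in the mir-141 knockout (7.44%). In the differences between clones of set 2, 0 of 9 were above 0.5 in double minus mir-200c (4.64% of all genes), double minus mir-141 (6.27%) and mir-200c minus mir-141 knockout (5.43%).

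Over both sets, limma called 0 of 9245 genes, which is 0% and includes 0 of the 9, in the double, mir-200c and mir-141 knockout and for loss of either microRNA across both backgrounds. At an unadjusted p under 0.05 were 581, 499, 248, 476 (loss of mir-141) and 821 (loss of mir-200c) genes. These are 6.28%, 5.4%, 2.68%, 5.15% and 8.88% of all genes, where a share of 0.05 would pass if no gene differed. The smallest limma adjusted p among the 9 was 0.553, for loss of mir-200c, where JUN had 0.69 ± 0.28 (mean difference ± SE, n = 4 libraries with the loss). For loss of mir-141 the estimates of all 9 were above 0, from 0.05 ± 0.28 (JUN) to 0.69 ± 0.26 (ETV4), with adjusted p = 0.984 and 0.901 from limma, and 47.7% of all genes were above 0. This count was 8 of 9 with set 1 alone and in 4 of the 8 fits that left out 1 library. For loss of mir-200c, 5 of the 9 were above 0, against 46.9% of all genes. The 9 were chosen with the ratios of these clones known, so nothing is read from these counts or p-values of theirs. P-values of the double, mir-200c and mir-141 knockout measure the spread between the sets, which pairs values whose names may not match. Those for loss of either microRNA also hold how far the effects of both losses fail to add up.

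The other genes of the pathway were taken from lists written with earlier results of these data known. Of 43 further immediate early factors, 32 were measured, with medians of 0.23, 0.08 and 0.12 in the double, mir-200c and mir-141 knockout of set 1, against −0.03, −0.02 and −0.01 over all genes. Above 0.5 were 11, 6 and 5 of the 32, against 7.36%, 9.05% and 3.55% of all genes. Below −0.5 were 2, 5 and 2, against 5.06%, 7.92% and 2.63%. Highest by the mean of the 3 clones were CTGF, a matricellular growth factor gene (1.23, 1.48 and 0.52 in the double, mir-200c and mir-141 knockout), and ATF3, a stress-induced partner of JUN (1.13, 1.70 and 0.05). Lowest were ID2, an inhibitor of helix-loop-helix factors (−0.77, −1.44 and −0.59), and KLF5, a growth-promoting Krüppel-like factor (−0.73, −0.47 and −0.71). CTGF and ATF3 shared with JUN that both clones without mir-200c stood above the mir-141 knockout.

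Named after their values were seen, the serum-induced factor EGR1 had 0.26, −1.45 and 0.51 in the double, mir-200c and mir-141 knockout, the AP-1 factor FOS 0.39, −0.61 and 0.09, and the orphan receptor NR4A1 0.13, −0.75 and 0.26. In all 3 the mir-200c knockout was the one clone below wild type, as for ETV4 and IER3. Of the 32 factors, 17 were above wild type in the mir-200c knockout, against 48% of all genes. How many genes share the order of these 3 was not counted. Double minus mir-200c knockout was 1.72 for EGR1, 1.00 for FOS and 0.88 for NR4A1, and 12 of the 32 factors were above 0.5 in that difference and 1 below −0.5, against 5.40% and 5.43% of all genes. BHLHE40, a clock-linked repressor also named after its values were seen, had 1.49, 0.07 and 1.00, the same order across clones as DUSP4.

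Among 33 further ERK feedback and output genes, 17 were measured, with medians of 0.44, 0.08 and 0.13 in the double, mir-200c and mir-141 knockout. Above 0.5 were 6, 5 and 3 of the 17, against 7.36%, 9.05% and 3.55% of all genes. In each of the 3 clones 0 lay below −0.5, against 5.06%, 7.92% and 2.63% of all genes. Highest by the mean of the 3 clones was PLAUR, the urokinase receptor (1.64, 1.05 and 0.93). Lowest were UPP1, a uridine phosphorylase (0.10, −0.21 and −0.40), and SPRED2, an inhibitor of RAS signalling (0.14, −0.27 and −0.01). Named after their values were seen, the feedback inhibitor SPRY4 had 0.58, −0.38 and 0.14 and the ERK phosphatase DUSP7 0.44, −0.43 and 0.27. Both lay below wild type in the mir-200c knockout alone. In that clone 10 of the 17 genes were above wild type, against 48% of all genes.

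The lists of the ERK cascade and of the JNK and p38 cascades, which hold kinases and other genes, had medians near 0. The 29 measured of 32 ERK cascade genes had medians of −0.02, −0.08 and −0.03 in the double, mir-200c and mir-141 knockout. Above 0.5 were 2, 2 and 2, against 7.36%, 9.05% and 3.55% of all genes. Below −0.5 were 1, 1 and 0, against 5.06%, 7.92% and 2.63%. Among the genes named here, the ribosomal S6 kinase gene RPS6KA2 had 0.46, 0.79 and −0.03, and RPS6KA5, a kinase of chromatin, had −0.27, −0.67 and −0.13. The 19 measured of 25 JNK and p38 cascade genes had medians of 0.03, 0.04 and 0.00. In each clone 0 were above 0.5, against 7.36%, 9.05% and 3.55% of all genes. MAPKAPK3 (0.47, 0.34 and 0.41) and MAP3K3 (0.39, 0.32 and 0.41) were highest, and MAP2K6, a p38 activator (−0.21, −1.10 and −0.04), and MAP3K4 (−0.21, 0.04 and −0.18) lowest.

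Immediate early genes also respond to handling and stress, so 28 heat shock and stress genes were set beside them, all of them measured. Their medians were 0.04, 0.01 and −0.07 in the double, mir-200c and mir-141 knockout. Above 0.5 were 5, 7 and 0 of the 28 (17.9%, 25% and 0%), against 7.36%, 9.05% and 3.55% of all genes. Below −0.5 were 1, 1 and 0, against 5.06%, 7.92% and 2.63%. PPP1R15A, a stress-induced phosphatase subunit (0.73, 1.11 and 0.50), and GADD45B, a stress sensor (0.70, 1.01 and 0.08), were highest, and the chaperone gene HSPA9 (−0.34, −0.51 and −0.31) and the co-chaperone gene BAG3 (−0.11, −0.50 and −0.17) lowest. PPP1R15A and GADD45B were highest in the mir-200c knockout, as JUN and ATF3 were. The part of handling or stress in the ratios of the 9 was not tested.

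In set 2, as listed, the further immediate early factors had medians of −0.07, 0.02 and −0.01 in the double, mir-200c and mir-141 knockout, and the further ERK feedback and output genes −0.13, 0.02 and −0.08. In the double knockout both medians were thus higher in set 1 than in set 2 as listed, which is not read as a failure to repeat. In that clone of set 2, 5 of the 17 ERK feedback and output genes were above 0, against 45.9% of all genes. CTGF was listed at −0.89, −1.01 and −0.89, below wild type in all 3 clones. The ERK cascade had medians of −0.12, −0.08 and −0.06, the JNK and p38 cascades −0.001, 0.02 and 0.04, and the stress genes −0.003, −0.03 and −0.06.

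**Figure D4:**
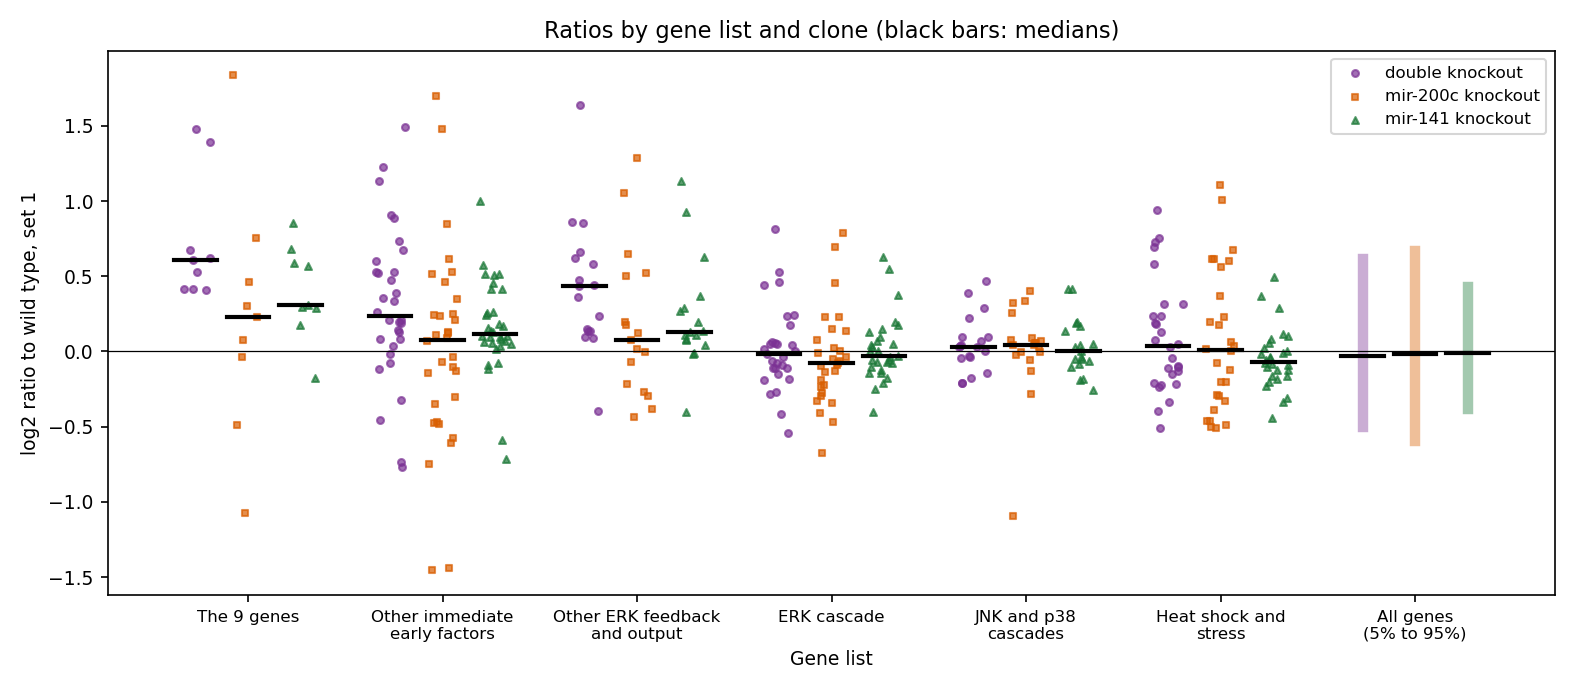
Log2 ratio to wild type (y axis) of each measured gene of 6 lists by clone of set 1, with medians as black bars and the central 90% of all genes as coloured bands at the right. The 9 genes have medians of 0.61, 0.23 and 0.31 in the double, mir-200c and mir-141 knockout, and those of the ERK cascade, JNK and p38, and stress lists lie between −0.08 and 0.04.

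Seed sites of both microRNAs were sought in each gene's longest 3′ UTR (GENCODE release 29), as the reverse complement of the seed (CAGTGTT for mir-141-3p and CAGTATT for mir-200c-3p), or its last 6 letters followed by A. Of 8800 measured genes with a 3′ UTR, 26.1% had a mir-141-3p site, 24.3% a mir-200c-3p site and 11.4% both. Of the 9, DUSP1, JUN and KLF6 had both, DUSP4 had a mir-200c-3p site, and DUSP5, JUNB, KLF2, IER3 and ETV4 had neither. The sites of the genes with both are shown because these are the mRNAs that could pair with either microRNA; capitals mark the match, and the lower-case bases precede it.
DUSP1, mir-141-3p site: actgatggaaaatacCAGTGTT
DUSP1, mir-200c-3p site: cttgacatacctacCAGTATTA
JUN, mir-141-3p site: tttgggtatcctgccCAGTGTT
JUN, mir-200c-3p site: cattcgatctcattCAGTATTA
KLF6, mir-141-3p site: ggcaacttgactgtCAGTGTTA
KLF6, mir-200c-3p site: actccctttacatgtCAGTATT
KLF6, further mir-200c-3p site: tattaaagatacagaAGTATTA
The DUSP1 gene lies on chromosome 5, JUN on chromosome 1 and KLF6 on chromosome 10. A match is a stretch of letters and was not shown to be bound.

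In the mir-200c knockout the 4 genes with a mir-200c-3p site were all above wild type, between 0.07 and 1.83, and of the 5 without one, 2 were above wild type, with a range from −1.07 to 0.76. Over all genes the medians in that clone were 0.01 with such a site and −0.02 without, and 51% and 47.3% were above wild type. The 9 were chosen on these ratios, so nothing is read from their counts. In the double knockout the genes with a mir-200c-3p site spanned 0.41 to 1.48 and those without one 0.41 to 1.40. Over all genes the medians there were 0.02 with such a site and −0.04 without, and 9.93% and 6.47% were above 0.5. In the mir-141 knockout the 3 genes with a mir-141-3p site spanned −0.18 to 0.68 and the 6 without one 0.29 to 0.85. Over all genes the medians there were 0.01 with such a site and −0.01 without, and 51.2% and 47.4% were above wild type.

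The RefSeq table matched 5 of the 9 (DUSP1, JUN, JUNB, KLF2 and KLF6; not DUSP4, DUSP5, IER3 and ETV4), and the 250 bases before the annotated start were searched on both strands. The MEF2 motif, bound by factors that respond to mitogen-activated kinases, was found in JUN and KLF2, and in 2.80% of all 35116 promoters. The letters TGACNTCA were found in DUSP1, JUN and KLF6, and in 6.87% of promoters. In DUSP1 they formed the full cyclic AMP response element TGACGTCA (1.65% of promoters), a form of TGACNTCA. The AP-1 motif TGANTCA, the ETS motif CCGGAAG and the CArG box of serum response elements had no match in these 5 windows, and are found in 6.57%, 8.52% and 1.16% of promoters. The windows of JUN (chr1:58784048-58784297, minus strand), KLF2 (chr19:16324576-16324825, plus strand) and DUSP1 (chr5:172771196-172771445, minus strand) are shown on GRCh38.p14, with the MEF2 motif and TGACNTCA in capitals.
JUN: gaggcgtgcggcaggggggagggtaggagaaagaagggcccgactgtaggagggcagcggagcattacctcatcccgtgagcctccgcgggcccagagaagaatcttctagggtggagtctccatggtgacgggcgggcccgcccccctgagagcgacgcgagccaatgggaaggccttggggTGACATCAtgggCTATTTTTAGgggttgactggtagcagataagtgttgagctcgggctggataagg
KLF2: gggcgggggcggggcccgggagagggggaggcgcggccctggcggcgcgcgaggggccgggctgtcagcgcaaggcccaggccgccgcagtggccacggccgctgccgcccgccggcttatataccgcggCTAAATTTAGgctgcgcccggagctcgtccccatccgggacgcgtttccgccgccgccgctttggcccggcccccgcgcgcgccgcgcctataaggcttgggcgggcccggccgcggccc
DUSP1: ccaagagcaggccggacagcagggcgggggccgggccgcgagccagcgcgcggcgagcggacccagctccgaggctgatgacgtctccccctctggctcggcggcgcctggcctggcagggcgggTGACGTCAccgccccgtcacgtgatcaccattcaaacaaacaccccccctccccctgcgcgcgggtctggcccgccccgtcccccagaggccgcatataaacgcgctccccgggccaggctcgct
In JUN the TGACNTCA match lies 60 to 67 bases before the start and the MEF2 match 46 to 55 bases before it, and in KLF2 the MEF2 match lies 111 to 120 bases before it. A match is a description, and no binding was measured.

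Neighbouring genes can share a ratio where a clone gained or lost a stretch of chromosome, so each of the 9 was set beside the 5 nearest measured genes on each side. The medians of these 10 neighbours lay between −0.16 and 0.21 over the 9 genes and the 3 clones of set 1. No neighbour of JUN or KLF2 reached their ratio in any of the 3 clones. All 10 neighbours of ETV4 lay above it in the mir-200c knockout (median 0.03), as did 9 of 10 neighbours of IER3 (0.06). For DUSP4 the neighbours' median was 0.15 in the double knockout, 0.21 in the mir-200c and 0.18 in the mir-141 knockout. In the mir-200c knockout DUSP4 lay below that median but within its neighbours, 6 of 10 being at or above its ratio. In the double and mir-141 knockout 0 of 10 were.

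By Euclidean distance over the 3 set 1 ratios, the genes nearest to the median profile of the 9 were FOXK1 (0.56, 0.27 and 0.31 in the double, mir-200c and mir-141 knockout), RSBN1 (0.59, 0.18 and 0.26), PTGFRN (0.62, 0.23 and 0.40), EIF4EBP3 (0.60, 0.14 and 0.33) and PKIA (0.63, 0.16 and 0.38). Their distances were between 0.065 and 0.0962. The median profile (0.61, 0.23 and 0.31) was taken clone by clone, and distances of the 9 from it are not given here. DUSP1 (0.68, 0.23 and 0.18) was near it, while JUN (1.48, 1.83 and 0.68) and ETV4 (0.52, −1.07 and 0.30) were not.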

How the data were processed

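The deposited table holds log2 ratios, per the file headers: each of 6 columns is 1 knockout clone over wild-type cells sequenced in that set. It has 9245 RefSeq entries and 9241 gene symbols. Poly(A) mRNA was captured on oligo(dT) beads, fragmented and sequenced on an Illumina HiSeq, per the labels' protocols. TopHat2 and GRCh37.p10 were used, per the submitters' processing notes; the counting, scaling, filtering and use of strand are not given in the sources used here. Depth is unknown, so no interval or filter on low values was possible, and a weakly expressed gene weighs as much as a strong one.

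The genes and lists were chosen with earlier results of these data known. Named are the 9 genes, the 2 highest and 2 lowest of each further list by the mean of the set 1 clones, and the 5 genes nearest to the median profile; others are marked in the text, and some genes that the rule names are not reported here. The design had assumed levels: with ratios, each wild type stood at 0. The labels name the shared set, so the set pairs the libraries and is a block in limma 3.58.1 (R 4.3.3), fitted to all genes with Benjamini-Hochberg adjustment, called at an adjusted p under 0.05 and tested on simulated data. Nothing says how separately the cultures were grown, so p-values measure the spread between these libraries. Alternatives were other thresholds, median centring, set 2, no block, robust variance and leaving out each library. Neighbours were ordered by RefSeq positions, found for 9215 entries.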

Additional observations from a re-analysis of the deposited data

How the results depend on the processing

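With a threshold of 1 in place of 0.5, those of the 9 genes above it numbered 2, 1 and 0 in the double, mir-200c and mir-141 knockout of set 1, against 6, 2 and 4, and 2 and 0 in double minus mir-200c and double minus mir-141 knockout, against 4 and 3. With 0.3 they were 5 in double minus mir-141 knockout and 2 in mir-200c minus mir-141 knockout, against 3 and 1. Here fewer or more genes pass by construction, and the shares of all genes at 1 and 0.3 were not counted. With set 2 as listed, counts above 0.5 were 2, 1 and 2 in the double, mir-200c and mir-141 knockout and 0 in each of the 3 differences between clones. The medians of set 2 were 0.0175, 0.0169 and 0.198 in the double, mir-200c and mir-141 knockout, 0.15 for double minus mir-200c and −0.17 for mir-200c minus mir-141 knockout. Double minus mir-141 knockout had the opposite sign, with −0.14 in set 2 as listed against 0.30 in set 1. The sets did not correlate across genes, and the cause was not tested.

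Median centring moved no count beyond 1.5 times and turned no median. Without the replicate block, limma was fitted to the knockout ratios alone, taken as independent although those of a set share 1 wild type. That fit called 0 genes in each of the 5 comparisons, as did those with the block and with robust variance. Leaving out 1 library at a time gave 0 to 1 called genes in the mir-141 knockout, 0 to 1 in the mir-200c knockout, 0 to 2 in the double knockout and 0 for either loss, with 0 of the 9 called in any of these fits. The calls came without the wild type of set 2 (2 genes in the double and 1 in either single knockout) and without either mir-200c clone (1 gene each in the mir-200c knockout). With set 1 alone, chosen after seeing the data, each genotype is 1 library. The spread in that fit comes only from how far the effects of both losses fail to add up, without a replicate. Its p-values and calls are therefore not given. Unknown depth keeps small ratios from being weighed against counting error.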
